A study of Mus musculus with 6 samples.

Results

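The genes of Notch signalling examined here were the 4 Notch receptors (Notch1, Notch2, Notch3 and Notch4), 4 of their ligands (Jag1, Jag2, Dll1 and Dll4), the nuclear effector Rbpj and the target gene Hes1. Their chromatin was read from 1 map of the mouse genome (mm10), which gives every bin of 200 bp a state number from 1 to 18 in hematopoietic stem cells (HSCs). Each gene was taken with 20 kb on each side of its RefSeq record. The windows were set by gene positions alone and held 453 of the 850831 segments of the map, over 834 kb of 2726.83 Mb.

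The study measured histone variant H3.3, which the chaperone HIRA deposits outside replication, in HSCs sorted from adult C57BL/6 bone marrow. There were 2 H3.3 ChIP libraries from HIRA KO cells, 2 from WT cells, 1 input from HIRA KO cells and 1 input from WT cells. Per the labels' protocols, deletion was conditional in the blood system and induced with the interferon inducer poly(I:C), given as 2 injections of 20 ug, and cells were taken 7 days after the first. The labels give the WT mice the same poly(I:C) protocol, so the map of WT cells is also read after that treatment. Neither the Cre driver nor the sort gate is given in the sources used here. The map bears the WT HSC H3.3 name in its file name alone, has no column for a library or for HIRA KO, and the signals behind it are not given. Depth is therefore unknown, no test over samples could be made, and all values below describe 1 map; HIRA KO chromatin was not analysed here.

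Notch is a receptor that is cut when a ligand on a neighbouring cell pulls on it. Its freed intracellular part enters the nucleus and turns RBPJ from a repressor into an activator at target genes such as Hes1. In blood, Notch signalling is best known for directing progenitors to the T cell lineage, while Notch ligands in bone marrow are mainly made by endothelial and stromal cells.

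The states have numbers and no names, so they are described by where they lie. States 3, 4, 5 and 6 covered 1.13% of the map, and the share of RefSeq gene starts in each was 33.7, 43.8, 45.3 and 56.7 times its share of bases. State 9 covered 0.182% and was also rich in gene starts, at 42.8 times. States 10 and 11, which lay on the other side of 84.2% of the edges of state 9 segments, were at 1.91 and 0.74 times. States 7 and 8 (0.28 and 0.17 times), states 16 and 17 (0.70 and 0.44 times) and state 18 (0.33 times), which covered 55% of the map, held few starts for their size. The grouping of states into classes came from earlier results on the same map.

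The label of the cells was set against markers. All 10 of the 10 HSC markers with a start in the RefSeq table, among them Kit, Procr, Hlf and Mecom, had a start in states 3 to 6. So had 2 of 6 markers of marrow endothelium and stroma (Emcn and Kdr), 0 of 6 T cell, 0 of 4 B cell, 0 of 5 myeloid and 1 of 4 erythroid markers. Over all 17492 protein-coding genes with a start in that table, the share was 51.6%. The lists are short and their counts were not tested.

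The 3 kinds of chromatin found at Notch receptor starts are shown by the 300 bases around 3 of them, 250 before the start and 50 from it onward (RefSeq, GRCm38.p6, the assembly of mm10). CpG dinucleotides are in capitals, because CpG-dense starts and CpG-poor starts differed in state over the whole genome. Notch1 is at chr2:26503773-26504072 on the minus strand, Notch3 at chr17:32166841-32167140 on the minus strand and Notch4 at chr17:34564045-34564344 on the plus strand.
Notch1: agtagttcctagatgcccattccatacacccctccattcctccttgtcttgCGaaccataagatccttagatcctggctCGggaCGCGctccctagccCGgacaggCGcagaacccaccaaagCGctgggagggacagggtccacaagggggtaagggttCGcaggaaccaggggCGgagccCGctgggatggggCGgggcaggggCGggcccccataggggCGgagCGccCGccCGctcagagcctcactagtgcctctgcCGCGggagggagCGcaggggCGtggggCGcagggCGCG
Notch3: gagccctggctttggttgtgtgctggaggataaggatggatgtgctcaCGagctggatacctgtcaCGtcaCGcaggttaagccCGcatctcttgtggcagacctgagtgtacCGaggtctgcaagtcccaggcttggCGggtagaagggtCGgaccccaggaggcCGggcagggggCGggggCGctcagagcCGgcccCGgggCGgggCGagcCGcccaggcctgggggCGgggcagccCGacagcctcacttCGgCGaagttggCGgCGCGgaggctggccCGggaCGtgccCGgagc
Notch4: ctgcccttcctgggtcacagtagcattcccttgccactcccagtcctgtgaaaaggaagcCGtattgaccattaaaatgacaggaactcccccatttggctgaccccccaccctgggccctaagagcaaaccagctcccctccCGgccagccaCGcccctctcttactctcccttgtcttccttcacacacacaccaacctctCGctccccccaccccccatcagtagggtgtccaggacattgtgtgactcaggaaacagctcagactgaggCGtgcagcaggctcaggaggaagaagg

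Notch1 started in state 3 with 23 CpGs, Notch3 in state 9 with 25 CpGs and Notch4 in state 18 with 5 CpGs. Notch1 and Notch3 thus had near-equal CpG counts and different states, whereas Notch4 had few CpGs.

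Of the 10 genes, 6 started in states 3 to 6 (Notch1, Notch2, Jag1, Dll4, Rbpj and Hes1), against 51.6% of 17492 protein-coding genes with a RefSeq start in the table. Over the 9 genes that have such a start, which leaves out Hes1, the count was 5 (55.6%). Another 3 genes (Notch3, Jag2 and Dll1) started in state 9, against 8.35% of all genes, and 18.9% of all genes started in states 9 to 11. Notch4 alone of the 10 started in state 18, against 20.3% of all genes. By role, states 3 to 6 held the starts of 2 of 4 receptors, 2 of 4 ligands and both nuclear genes. Hes1 has no start in the table and was counted because both ends of its record lay in these states. With 10 genes and 1 map, these shares carry no test.

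**Figure D1:**
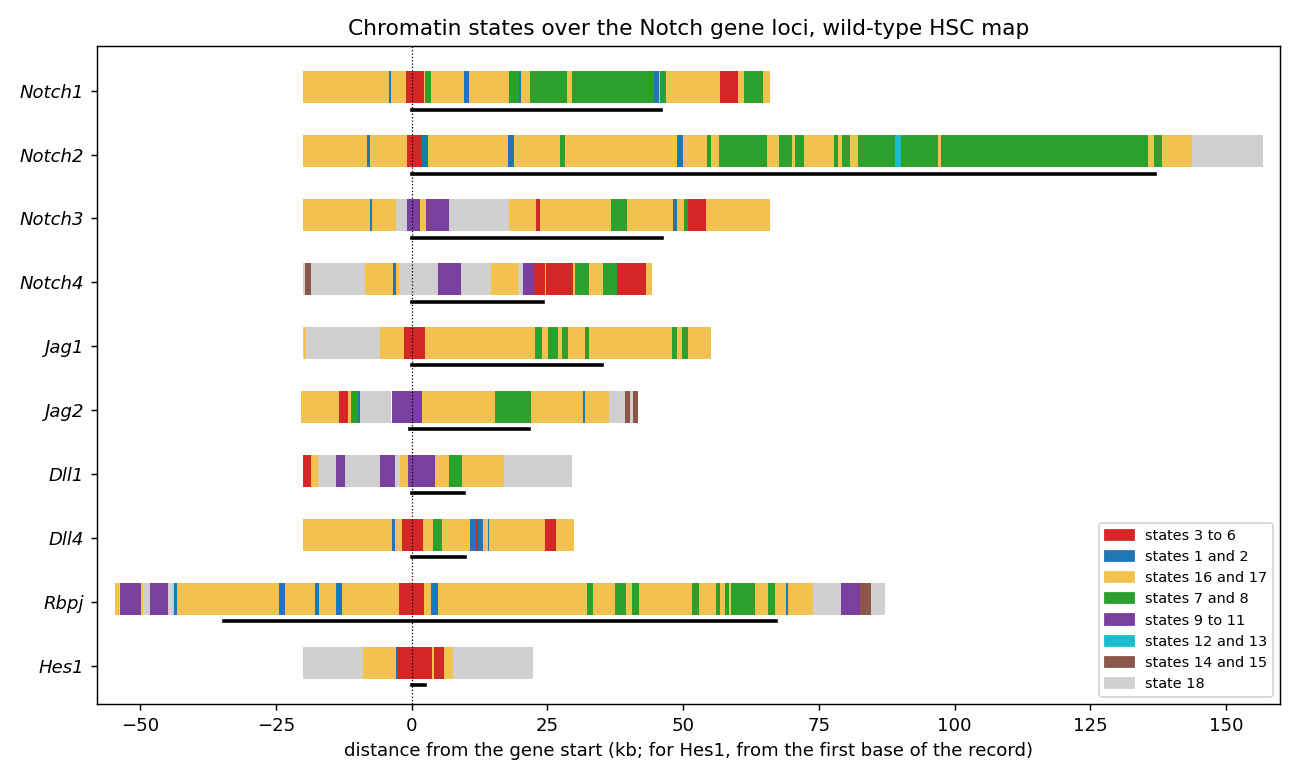
State classes (colours) over each gene record (black line) with 20 kb on each side; the x axis is the distance in kb from the gene start, with transcription running to the right, except for Hes1, which is drawn in chromosome order from the first base of its record. The dotted line crosses states 3 to 6 in Notch1, Notch2, Jag1, Dll4, Rbpj and Hes1, states 9 to 11 in Notch3, Jag2 and Dll1, and state 18 in Notch4. Dll1 is aligned on the upstream of its 2 starts.

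Among the receptors, Notch1 (chromosome 2, 26457902 to 26503822, minus strand) had a start inside a run of states 3 to 6 of 3.2 kb. The run reached 0.978 kb upstream and 2.22 kb downstream of the start. It also held the start of the lncRNA Gm35978. Each record was also cut into 3 sections of equal length, read in the direction of transcription from the end of the record, which can lie upstream of the gene start. Downstream, the Notch1 record changed from states 16 and 17, which made up 71.1% of its start section, to states 7 and 8, which made up 92.2% of its end section. An unbroken run of states 7 and 8 of 15 kb lay 29.6 to 44.6 kb from the start. The window had no bases in states 9 to 11 and none in state 18.

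Notch2 (chromosome 3, 98013538 to 98150367, plus strand), the other receptor with its start in states 3 to 6, started in state 6 within a run of 2.8 kb. States 7 and 8 covered 2.19% of its start section, 51.2% of the middle section and 96.5% of the end section. Their longest unbroken run spanned 38.2 kb, and within it 1 state 8 segment measured 34.6 kb. A single state 12 segment of 1 kb lay in the record between runs of states 7 and 8. Notch1 and Notch2 were alike in their state shares: the likeness, which is the sum over the 18 states of the smaller of the 2 shares and has a maximum of 1, was 0.852, the second highest among pairs of the 10 genes.

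Notch3 (chromosome 17, 32120820 to 32166896, minus strand), known for its role in the smooth muscle of arteries, started in a state 9 segment of 1.8 kb. The run of states 9 to 11 around the start was 2.4 kb long, and a second run of 4.2 kb lay 2.69 to 6.89 kb inside the gene. A state 18 segment of 11 kb followed. The window held 4.2 kb of states 3 to 6, none at the Notch3 start: a run of 3.4 kb covered the starts of the lncRNAs Gm30729 and Gm38585, and a state 6 segment of 0.8 kb lay inside the record, 3.41 kb from the start of the lncRNA Gm41568.

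Notch4 (chromosome 17, 34564286 to 34588543, plus strand), the receptor known from endothelium, started in a state 18 segment of 7.2 kb. Only state 18 was found within 1 kb of its start. The end section of its record nevertheless held 21.6% of states 3 to 6, and the window held 12.2 kb of them. All of it lay in 3 runs in or downstream of the end section. The first, of 2 kb, ended 1.01 kb before the start of Gpsm3, and the others covered the starts of Gpsm3 and Pbx2 (5 kb) and of Agpat1 (5.2 kb), which are neighbouring genes. The states of the window therefore differ from those of the Notch4 start.

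Of the ligands, Jag1 (chromosome 2, 137081451 to 137116520, minus strand) started in state 3, in a run of states 3 to 6 of 4 kb made only of states 3 and 5. The run reached 1.48 kb upstream and 2.52 kb downstream, and no other gene in the table started in it. States 16 and 17 covered 67.1% of the window, and states 7 and 8 appeared in the record as 4 short runs of 0.8 to 1.8 kb. No state 1 or state 2 segment was found in the window.

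Dll4 (chromosome 2, 119325784 to 119335666, plus strand), the ligand of vascular and thymic epithelial cells, started in a state 3 segment of 1.8 kb within a run of 3.8 kb. The run also held the start of the lncRNA Gm14207. From 10.8 kb past the start, beyond the end of the record, lay 2 state 1 segments of 1 kb each on either side of a run of states 3 and 5 of 0.4 kb. That run was 11.4 kb from the nearest start, that of Gm14207. States 16 and 17 made up 78.8% of the Dll4 window, the highest share of the 10 genes, and state 18 made up none.

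The other ligands had different chromatin at the start. Jag2 (chromosome 12, 112907803 to 112929812, minus strand) started in a state 9 segment of 2.6 kb, inside a run of states 9 to 11 of 5.6 kb. Dll1 (chromosome 17, 15367354 to 15376932, minus strand) had 2 starts, both in the same state 9 segment of 3 kb, inside a run of 5 kb. A further 2.8 kb run of states 9 to 11 lay 4.18 to 6.98 kb upstream of the downstream start. States 3 to 6 in these windows lay away from the starts: in the Jag2 window mainly near Nudt14, whose start they covered, and in the Dll1 window at the start of Fam120b. The end section of both records was mostly in states 7 and 8, at 87.2% for Jag2 (a run of 6.6 kb) and 75.2% for Dll1 (a run of 2.4 kb).

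Rbpj, the DNA-binding effector of the pathway (chromosome 5, 53555779 to 53657445, plus strand), had 2 starts in 1 state 5 segment of 1 kb. The run of states 3 to 6 around them was 4.6 kb long and consisted of states 3 and 5. The RefSeq record begins far upstream of both starts, and its 2 ends both lay in state 17, so reading record ends misses this run. The 300 bases around the upstream start, chr5:53590096-53590395 on the plus strand, are shown because Rbpj was the single gene of the 9 with a promoter sequence to hold TGGGAA, the core letters that RBPJ binds; the capitals mark TGGGAA and its reverse complement TTCCCA.
Rbpj: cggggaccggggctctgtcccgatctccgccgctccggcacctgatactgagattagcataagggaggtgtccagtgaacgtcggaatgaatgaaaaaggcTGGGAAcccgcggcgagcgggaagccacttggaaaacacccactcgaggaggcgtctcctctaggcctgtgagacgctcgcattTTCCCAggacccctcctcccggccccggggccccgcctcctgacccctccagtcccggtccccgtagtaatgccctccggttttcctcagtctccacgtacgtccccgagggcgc

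The matches began 149 and 65 bases before the upstream start, and the nearer of them also fell in the window of the downstream start, 205 bases before it. Of 21263 promoter sequences, 24.5% held TGGGAA on either strand. The match is a description of the letters, and binding was not measured. The letters GGGCGG, the core of GC boxes, were found on either strand in 46.2% of promoters, with 5 matches at Notch1, 7 at Notch2, 4 at Notch3, 5 at Jag2, 2 at Dll4 and 1 at the downstream Rbpj start, and none at Notch4, Jag1, Dll1 or the upstream Rbpj start. These 2 motifs cannot overlap.

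Hes1, a transcriptional repressor of the basic helix-loop-helix family (chromosome 16, 30065357 to 30067796), lay wholly inside a run of states 3 to 6. The run was 6.6 kb long against a record of 2.44 kb, and it began 2.76 kb before the first base of the record. A further run of 2 kb followed after a single bin of state 16. The record of the lncRNA Gm32998 (30067863 to 30070438) overlapped both runs and has no start in the table. States 3 to 6 made up 20.3% of the Hes1 window, the highest share of the 10 genes, and state 18 made up 60.9%, also the highest. Beyond short flanks of states 16 and 17, state 18 followed on both sides in segments of 31.4 and 17.8 kb that ran on past the window.

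The runs of states 3 to 6 differed in length between the 6 genes. They measured 6.6 kb at Hes1, 4.6 kb at Rbpj, 4 kb at Jag1, 3.8 kb at Dll4, 3.2 kb at Notch1 and 2.8 kb at Notch2, with a median of 3.9 kb. Over 10693 starts in these states the median run was 2.4 kb, with quartiles of 1.8 and 2.8 kb, and 5 of the 6 genes lay above the upper quartile. Hes1 was at percentile 99.5 of those runs, Rbpj at 96.2, Jag1 at 93.4, Dll4 at 92, Notch1 at 83.4 and Notch2 at 71.8. The runs taken for the 10 HSC markers had a median of 3.5 kb and a wider range, 1.8 kb at Cd34 to 16 kb at Meis1. Of these runs, 3 (Hlf, Gata2 and Meis1) were longer than the run at Hes1. Mecom was counted with its run of 3.4 kb, and another of its starts lay in a run of 6.2 kb. Whether the marker median lay below the 3.9 kb of the Notch genes depends on the Mecom start taken, so no order is drawn. The runs of states 9 to 11 were shorter than the median: 5.6 kb at Jag2, 5 kb at Dll1 and 2.4 kb at Notch3, against 8.4 kb over the 1660 starts in state 9, with quartiles of 5.2 and 13.6 kb. Among those starts Jag2 was at percentile 28.7, Dll1 at 23 and Notch3 at 4.94.

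**Figure D2:**
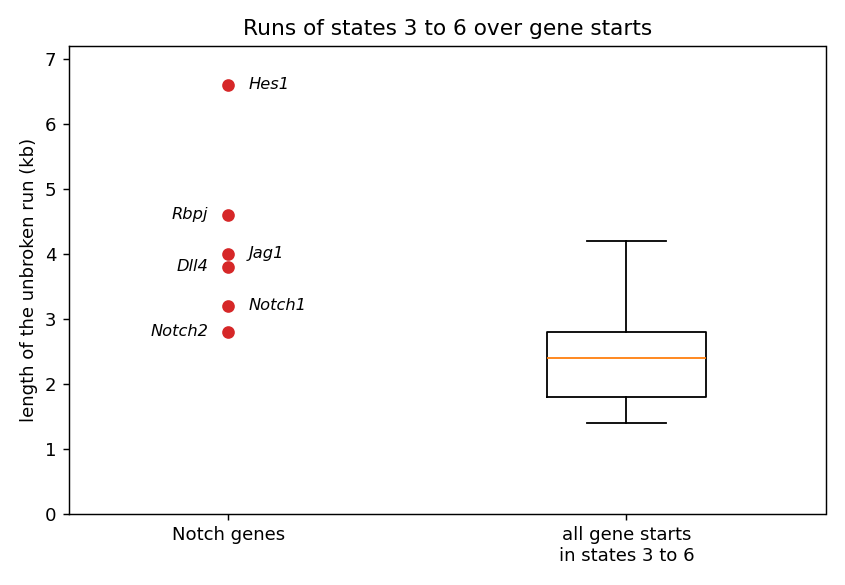
Length in kb of the unbroken run of states 3 to 6 at the 6 Notch genes that have one (left, points) and at all 10693 starts in these states (right; box, quartiles and median; whiskers, percentiles 5 and 95). Hes1, measured at its record because it has no start in the table, stands highest at 6.6 kb, and the median over all starts is 2.4 kb.

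CpG content did not separate the genes in states 3 to 6 from those in state 9. Genes in states 3 to 6 had 17 (Dll4), 22 (Jag1), 23 (Notch1), 26 and 28 (Rbpj) and 41 (Notch2) CpGs in 300 bases. Genes in state 9 had 15 and 24 (Dll1), 25 (Notch3) and 63 (Jag2), so the ranges overlapped. Over all starts the median was 22 in states 3 to 6, 12 in states 9 to 11 and 2 in state 18. The 1660 starts in state 9 alone had a median of 24, with quartiles of 16 and 33. Notch3 and the Dll1 start with 24 CpGs lay near that median, the other Dll1 start lay below the lower quartile, and Jag2, with a GC content of 86%, was at percentile 99.8.

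**Figure D3:**
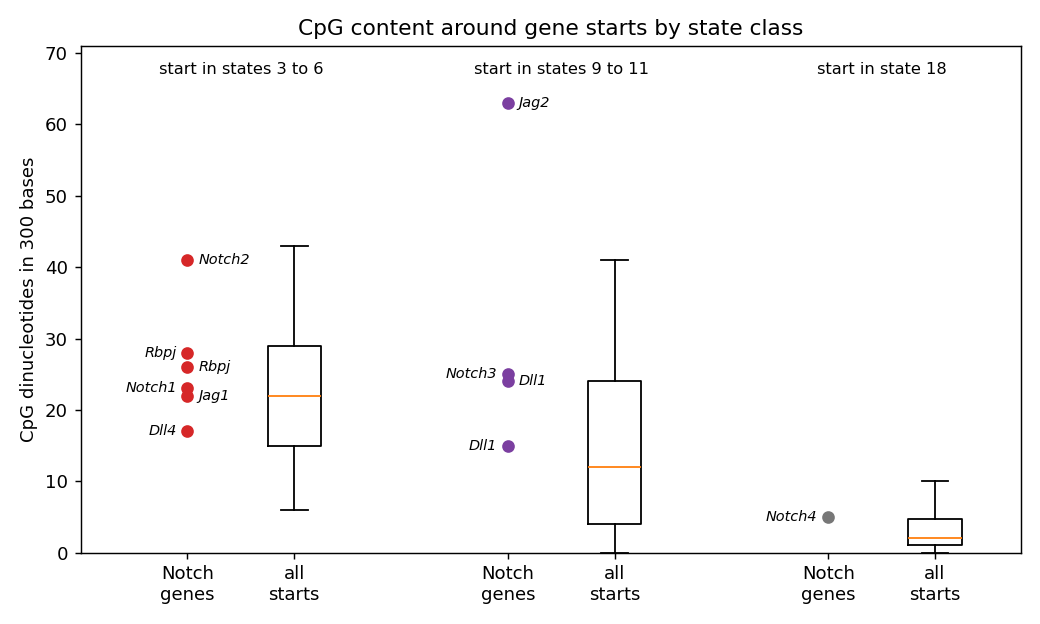
CpG dinucleotides in the 300 bases around each start (y axis), for the Notch genes (points) and all starts (boxes, quartiles and median; whiskers, percentiles 5 and 95), by the state class at the start; Dll1 and Rbpj have 2 starts each. Notch genes range from 17 to 41 in states 3 to 6 and from 15 to 63 in states 9 to 11, and Notch4, in state 18, has 5.

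States 7 and 8 lay mainly in the end section of most records. In the start section they covered 7.84% of Notch1, 2.19% of Notch2 and 0% of Notch3, Notch4, Jag1, Jag2, Dll1, Dll4 and Rbpj. The start section of the Rbpj record lay wholly upstream of both Rbpj starts, which fell in the middle section. In the end section they covered 96.5% of Notch2, 92.2% of Notch1, 87.2% of Jag2, 75.2% of Dll1, 35.4% of Jag1, 34.9% of Rbpj and 19.5% of Notch3. Notch4 had none anywhere in its record, and Dll4 had 48.6% in the middle section and none elsewhere. Over 5001 genes with a start in states 3 to 6 and a record of 20 kb or more, the mean was 19.1 ± 21.9% (SD over genes) in the start section, 36.4 ± 32.4% in the middle section and 46.8 ± 33.2% in the end section. Notch1 and Notch2 were thus more than 1 SD above that mean in the end section. In the start section both lay below the mean. There the SD exceeds the mean, so even a share of 0% would lie within 1 SD. The state 9 genes Jag2, Dll1 and, at a lower share, Notch3 also had these states in the end section. No mean over genes with a start in state 9 was taken to set them against.

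**Figure D4:**
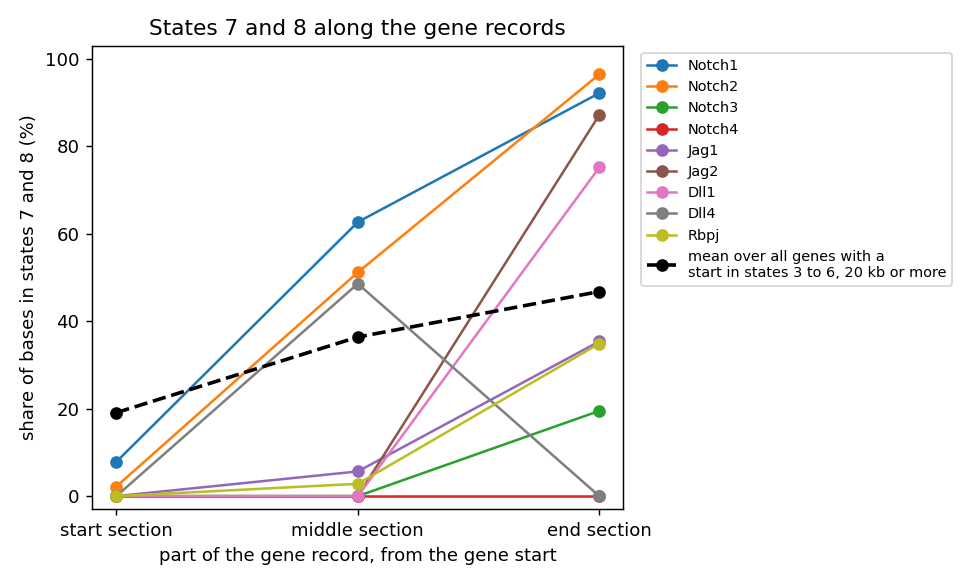
Share of bases in states 7 and 8 (y axis, %) in the start, middle and end section (3 equal lengths) of each gene record, read in the direction of transcription (x axis). Sections are of the record, so the start section of Rbpj lies upstream of both its starts. Coloured lines are the 9 genes with a known strand, and the dashed line is the mean over 5001 genes with a start in states 3 to 6 and a record of 20 kb or more. Notch2 and Notch1 are highest in the end section, at 96.5% and 92.2%, Dll4 peaks in the middle section and Notch4 stays at 0%.

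Over all 10 windows, states 16 and 17 were the largest class. They covered 53.6% of the 834 kb, against 18.3% of the map and a median of 29.1% over the windows of 21779 protein-coding genes. Single windows ranged between 18.4% at Hes1 and 78.8% at Dll4. States 3 to 6 covered 6.25% of the windows (1.13% of the map, gene median 2.77%) and states 9 to 11 covered 4.63% (13.5% of the map, gene median 3.71%). States 7 and 8 covered 16.7% (5.58% of the map), a share that was 28.6% over the gene records alone. Notch2 alone gave 69.8 of their 140 kb. Their median over the 10 windows was 8.56%, below the gene median of 9.33%. State 18 covered 15.9% (55% of the map, gene median 26.4%), a share that was 5.51% with 5 kb on each side, 5.19% over the records alone and 28.1% with segments kept whole. These pooled shares weight long windows more, unlike the gene medians. The medians over the 10 windows were 55.9% for states 16 and 17 and 5.1% for states 3 to 6. They were 3.81% for states 9 to 11 and 15% for state 18.

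**Figure D5:**
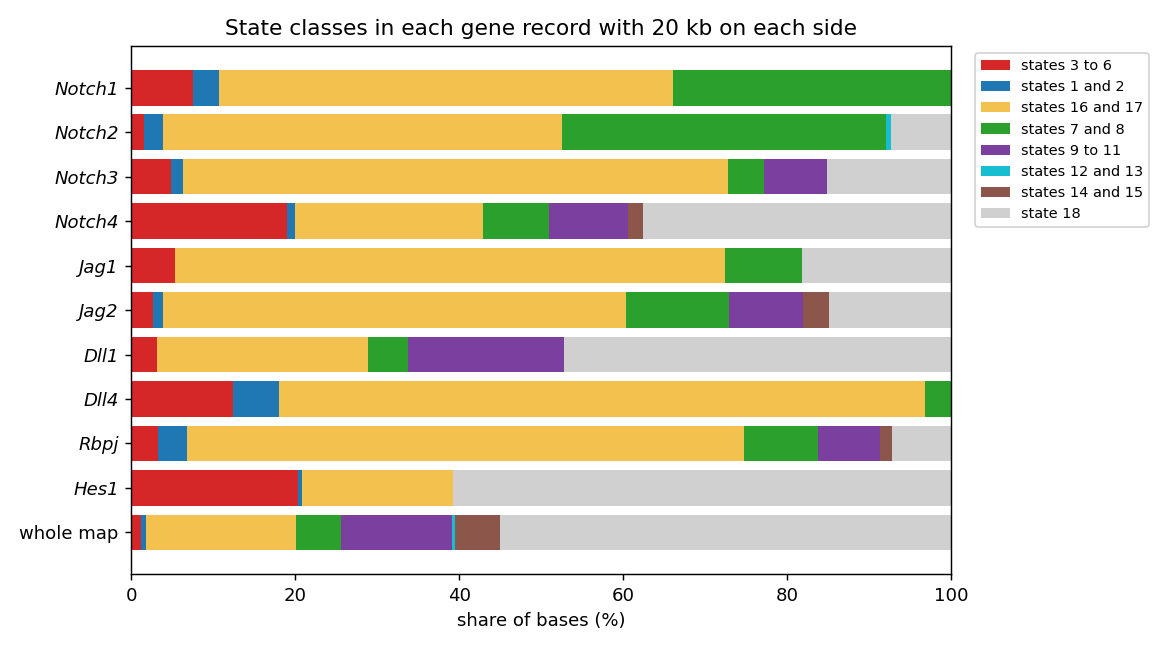
Share of bases (x axis, %) in each state class for the 10 genes with 20 kb on each side, and for the whole map in the lowest bar. States 16 and 17 take between 18.4% and 78.8% of the gene windows and 18.3% of the map; states 9 to 11 are absent from Notch1, Notch2, Jag1, Dll4 and Hes1.

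State 1, which covered 0.259% of the map, covered 1.15% of the windows and was found in 5 of the 10 (Notch1, Notch2, Jag2, Dll4 and Rbpj), against 34% of all gene windows. Notch1 and Rbpj had 4 state 1 segments each, Notch2 had 3, Dll4 had 2 and Jag2 had 1. At Notch1 they lay 3.78 kb or more upstream of the start and 9.62, 19.8 and 44.6 kb or more downstream of it. At Notch2 they lay 7.74 kb or more upstream and 17.7 and 48.9 kb or more downstream, the downstream pair within the record and 1.2 kb long each. At Rbpj the segment of 0.6 kb nearest to a start lay 3.52 kb beyond the downstream start and bordered a state 2 segment. Longer windows can hold more segments, and the share of genes with state 1 was not corrected for window length.

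Other genes with the most similar state shares, among genes of like record length, were found for each member over the 18 states. For Notch1 these were Mapk14 (likeness 0.956) and Acvr1b (0.955), against a median of 0.579 over 6490 genes compared. For Notch2 they were Rbpms (0.938) and Rasa3 (0.920), for Notch3 Usp2 (0.943) and Fbxw4 (0.923), and for Notch4 Oplah (0.904) and Aloxe3 (0.873). For Jag1 they were Iftap (0.954) and 2510009E07Rik (0.945), for Jag2 Adora2b (0.924) and Unc45b (0.910), for Dll1 Gpr61 (0.870) and Plekhf1 (0.869), and for Dll4 Ccdc71 (0.929) and Tspyl2 (0.923). Rab37 (0.937) and Rb1 (0.917) were nearest to Rbpj, and LOC108168956 (0.879) and Gm49894 (0.873) to Hes1. Of the genes named for the state 9 genes Notch3, Jag2 and Dll1, Usp2 and Adora2b also started in state 9, Unc45b started in state 18 and Plekhf1 in state 3, and Fbxw4 and Gpr61 have no start in the table. Within the group, Notch3 and Jag2 were the most alike pair (0.863).

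The rest of the pathway was read at gene starts alone, so genes with no start in the table were not counted by their record ends as Hes1 was. Of 43 other Notch pathway genes with a start in the table, 31 (72.1%, against 51.6% of all genes) had a start in states 3 to 6 and 10 (23.3%, against 18.9%) a start in states 9 to 11; a gene with several starts could count in more than 1 class.

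Genes that cut and mature the receptor were all in states 3 to 6, at 13 of 13. They included the sheddases Adam10 (state 6) and Adam17 (state 5) and the gamma-secretase subunits Psen2 (state 3, with another start in state 17) and Ncstn (state 6). Lfng, a glycosyltransferase that modifies Notch, started in state 3 in a run of 5.2 kb. Mfng has no start in the table.

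Genes of trafficking and turnover had a start in states 3 to 6 in 6 of 8 cases, among them the inhibitor Numb (1 of its 3 starts, in state 6), Numbl (6), Dtx2 (6) and Fbxw7 (1 of its 3 starts, in state 5), which targets active Notch for degradation. Dtx1 and Neurl1a started in state 9. Dtx3, Dtx4, Itch and Mib1 have no start in the table. Nuclear cofactors had 9 of 10, among them the coactivators Maml1 (5), Maml2 (3, with another start in state 1) and Maml3 (4) and the corepressor Spen (6). The exception was Rbpjl, a relative of Rbpj best known from pancreas, which started in state 10. Snw1 and Kdm5a have no start in the table.

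The other ligands and relatives of ligands contrasted with these: 4 of 4 started in states 9 to 11, Dll3 and Dlk1 in state 11 and Dlk2 and Dner in state 9. Target genes were divided. Hes5 (state 4), Hes6 (states 6 and 5) and Hes7 (state 3, in a run of 6.6 kb) started in states 3 to 6. Hey2, Nrarp, which dampens Notch signalling, and Tcf7, a T cell factor, started in state 9. Ptcra, the pre-T cell receptor alpha chain, and Il2ra, both used by T cell precursors, started in state 18. Hes2, Hes3, Hey1 and Heyl have no start in the table. No test was made between these lists.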

How the data were processed

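Per the labels, H3.3 ChIP-seq was done on HIRA KO and WT HSCs; chromatin was MNase-digested before the pull-down. Per the submitters' processing notes, Bowtie2, deepTools, MACS2 and HOMER were used, and the build was mm10. Each deposited segment carries a state number, and the states were ordered by emission, per the file headers. Neither the inputs of the model nor its version is given in the sources used here. The state numbers carry no counts or signal, so no depth or counting interval is given. The dense file was used; the expanded file gave the same state in 100% of bins.

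RefSeq records and starts (GRCm38.p6, the assembly of mm10) were matched by gene identifier; 21779 protein-coding genes were kept after leaving out 121 within the first 3 Mb of a chromosome or outside the map. All 10 genes had a record and 9 a start in the table. A gene was counted in a class when any of its starts lay in it; for Hes1, both ends of the record had to. Windows were clipped at 20 kb. Likeness was computed among genes within 2 times the record length and with no overlapping window. Python 3.11.15 and NumPy 2.4.6 were used. State lookup, window sums and run calls were tested on simulated data and were right in 100% of 4000, 400 and 20 cases.

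The genes, lists and classes were chosen with earlier results of these data known. Genes named outside the group were the list members outside their list's most frequent class, the first 4 in that class, neighbours in a window and the 2 most alike genes; Lfng, Meis1 and the other HSC markers were named after their values were seen.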

Additional observations from a re-analysis of the deposited data

How the results depend on the processing

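The count of 6 genes with a start in states 3 to 6 was 6 under each alternative: any bin within 1 kb of the start, either record end, the expanded file, and segments of 1 bin left out. With either record end the genes were not identical: 5 were shared, Rbpj dropped out and Notch4 came in. Leaving out segments of 1 bin moved none of the 5 class shares beyond their 95% Wilson interval over bins (5.54 to 7.01% for states 3 to 6). Leaving out records of other protein-coding genes gave 5.01% for states 3 to 6. With 5 kb on each side, states 7 and 8 covered 23.9%, states 16 and 17 covered 56.3% and state 18 covered 5.51%. With 50 kb on each side, states 3 to 6 covered 4.74%, states 9 to 11 covered 3.94%, states 7 and 8 covered 18.3%, states 16 and 17 covered 46.7% and state 18 covered 23.8%. Over the gene records alone, states 3 to 6 covered 4.2%, states 7 and 8 covered 28.6%, states 16 and 17 covered 55.2% and state 18 covered 5.19%. With segments kept whole, states 3 to 6 covered 5.16%, states 9 to 11 covered 3.8%, states 7 and 8 covered 13.7%, states 16 and 17 covered 46.8% and state 18 covered 28.1%. Each of these settings changes which bases are counted. Bins in a segment are not independent, so the intervals cover less than the true spread. No paired analysis was possible because the single map has no column for a replicate.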
